A study of Mus musculus with 6 samples.

Results

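The let-7 genes that lie outside the miR-99/miR-125 clusters are 9 miRNA genes, chosen by name among 30638 features, of which 2207 are miRNA genes. They are Mirlet7a-1, Mirlet7f-1 and Mirlet7d on chromosome 13, Mirlet7c-2 and Mirlet7b on chromosome 15, Mirlet7f-2 and Mir98 on chromosome X, Mirlet7g on chromosome 9 and Mirlet7i on chromosome 10. Their counts were followed in 6 small RNA libraries, each from the heart of 1 C57BL/6 mouse. The 3 knockout mice (title L/L, cre; genotype Elac2 -/-) carried loxP sites around an Elac2 exon, which was removed by cre under the muscle creatinine kinase promoter, as the labels spell it. The 3 control mice (title L/L; genotype Elac2 +/+) have the same L/L in their titles without cre, and the labels do not spell out what L/L stands for. The labels give no age or sex. A muscle promoter does not drive cre in the other cell types of the heart, and whole hearts were used. Elac2 encodes RNase Z, which trims the 3′ end of precursor tRNAs.

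The let-7 family was first found in the nematode Caenorhabditis elegans, where it controls the timing of development. In mammals its hairpins are cut by Drosha in the nucleus and by Dicer in the cytoplasm, and the mature strand guides Argonaute to mRNAs that pair with its seed. The RNA-binding proteins LIN28A and LIN28B block the maturation of let-7 in embryonic cells, and mature let-7 is abundant in differentiated tissues, the adult heart included. Its known targets include Hmga2, Myc and Ras mRNAs, none of which was analysed here.

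The 9 genes encode 8 different mature 5p sequences, each 22 nt long, taken from RefSeq on build GRCm38.p6. They are shown because reads of the family are told apart by only a few bases. Capitals mark the seed, bases 2 to 8 from the 5′ end, and U is written as in RNA.
let-7a (Mirlet7a-1): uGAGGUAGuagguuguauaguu
let-7f (Mirlet7f-1 and Mirlet7f-2): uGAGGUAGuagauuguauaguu
let-7d (Mirlet7d): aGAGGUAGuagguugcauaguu
let-7c (Mirlet7c-2): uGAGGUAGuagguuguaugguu
let-7b (Mirlet7b): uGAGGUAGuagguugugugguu
miR-98 (Mir98): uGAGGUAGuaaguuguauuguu
let-7g (Mirlet7g): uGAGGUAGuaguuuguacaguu
let-7i (Mirlet7i): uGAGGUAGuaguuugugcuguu

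All 8 sequences share the seed, which 13 of 1738 mature miRNA entries in the RefSeq table carry. Against let-7a, counted from 1 at the 5′ end with the let-7a base first, let-7f differs by G12A alone and let-7c by A19G alone. The let-7b sequence differs by A17G and A19G, miR-98 by G11A and A19U, let-7d by U1A and U16C, and let-7g by G12U and U18C. The let-7i sequence is farthest from let-7a, with 4 substitutions (G12U, A17G, U18C and A19U).

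Of the 9 genes, 7 had counts, and 2 were listed at 0 in every library. Mirlet7d (chr13:48536012-48536114, minus strand, GRCm38) had 0 counts in all 6 libraries, which by counting error alone allows at most 0.185 to 0.222 CPM, counts per 1000000 counts of a library (3 counts of its total). Mirlet7i (chr10:122985640-122985724, minus strand) was also at 0 in all 6 libraries, with the same limit. Both let-7d and let-7i are known as widely expressed in mammalian tissues. The limit holds only for reads that the authors assigned to these rows, and how they treated reads that align to several places or overlap several features is not stated, so a 0 here does not show that the miRNA was absent. In GENCODE M21, Mirlet7d lies in an exon of the lincRNA gene 6720427I07Rik on the same strand, and Mirlet7i in an exon of the pseudogene transcript D630033A02Rik on the same strand. The row of 6720427I07Rik held between 1 and 11 counts per library. Mirlet7f-1 and Mirlet7a-1, which were counted, lie in exons of the same lincRNA on the same strand, and Mirlet7c-2 and Mirlet7b, also counted, lie in exons of another noncoding gene. The part of overlapping annotation and of reads with several alignments in these zeros was not tested.

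One further row bears on let-7i. Mir7j, listed by RefSeq as let-7j and looked at after the zeros were seen, had 437 to 490 CPM after TMM scaling, which sets libraries to a common level from the bulk of their features, in knockout and 365 to 443 CPM in control hearts. Its mature sequence differs from let-7i by G8U alone over the first 22 nt, so its seed is not the let-7 seed. Capitals again mark bases 2 to 8.
let-7j (Mir7j): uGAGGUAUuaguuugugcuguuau
The log2 fold change of Mir7j was 0.26 (SE 0.17, adjusted p = 0.205 by edgeR), and its groups overlapped. Which reads this row holds was not tested.

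Total counts were between 13510061 and 16248673 per library, and miRNA genes held between 4231749 and 6822014 of them. The 9 genes together held 383767, 396067 and 455207 counts in knockout replicates 1 to 3 and 497151, 434083 and 482899 in control replicates 1 to 3. The miRNA share of all counts was 29.2% to 33.3% in knockout and 39.5% to 43.4% in control hearts, so values per total count and per miRNA count do not move alike. Marker miRNAs of heart cell types were present, with Mir126b, Mir223, Mir155, Mir199a-2 and Mir214 at 0 in every library. The 7 cardiomyocyte miRNA genes summed to 72669 to 93284 CPM in knockout and 117837 to 148037 CPM in control hearts (1 called higher, 2 lower). Endothelial miRNAs (2 genes, 0 called) summed to 17620 to 20972 CPM against 19531 to 23763 CPM in control, and the 7 blood and immune genes to 2364 to 3115 CPM against 2770 to 3849 CPM in control (1 called higher, 2 lower). The 5 fibroblast and smooth muscle genes summed to 23383 to 31268 CPM in knockout and 27309 to 34272 CPM in control hearts (1 called higher, 0 lower). Each of the last 2 sums is led by 1 gene, Mir486 (mean 1761 CPM, log2 fold change -0.67) and Mir143 (28468 CPM, -0.20). The cardiomyocyte sum is led by the 2 genes called lower, Mir1a-1 (mean 52021 CPM, -0.57) and Mir1a-2 (51541 CPM, -0.61). In the endothelial list only Mir126a had counts. The genes called higher in the cardiomyocyte, blood and fibroblast lists were Mir208b (0.79), Mir144 (0.85) and Mir199a-1 (0.79). The sums thus do not stand for every gene in them. Mir21a, a miRNA that rises in stressed hearts, was at 7664 to 10323 CPM in knockout and 3111 to 3186 CPM in control hearts. In whole tissue, fewer cells of a type cannot be told apart from less RNA per cell. The part of these differences in the let-7 values was not tested. The 3 hearts of a group came from separate mice, and p-values measure the spread between them. The deletion itself was not checked, since mRNA of Elac2 was not analysed here.

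Of the 7 let-7 genes with counts, 2 were called higher in knockout hearts and 0 lower in the edgeR fit (quasi-likelihood test, adjusted p under 0.05). Mir98 rose by a factor of 1.92 and Mirlet7c-2, which encodes let-7c, by 1.48. At an unadjusted p under 0.05 the counts were also 2 and 0, where 302 of all 1144 features were higher and 357 lower. DESeq2 called 2 and 0, with 255 of 3268 features called higher and 565 lower. In the edgeR fit at adjusted p under 0.05, 23.2% of all 1144 features tested were called higher and 27% lower. Among the 312 miRNA genes tested 53 were called higher and 20 lower (17% higher). The median log2 fold change was 0.22 for the 7 let-7 genes, -0.01 for all features and 0.21 for miRNA genes. The median of the let-7 genes was thus close to that of the miRNA genes tested.

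**Figure D1:**
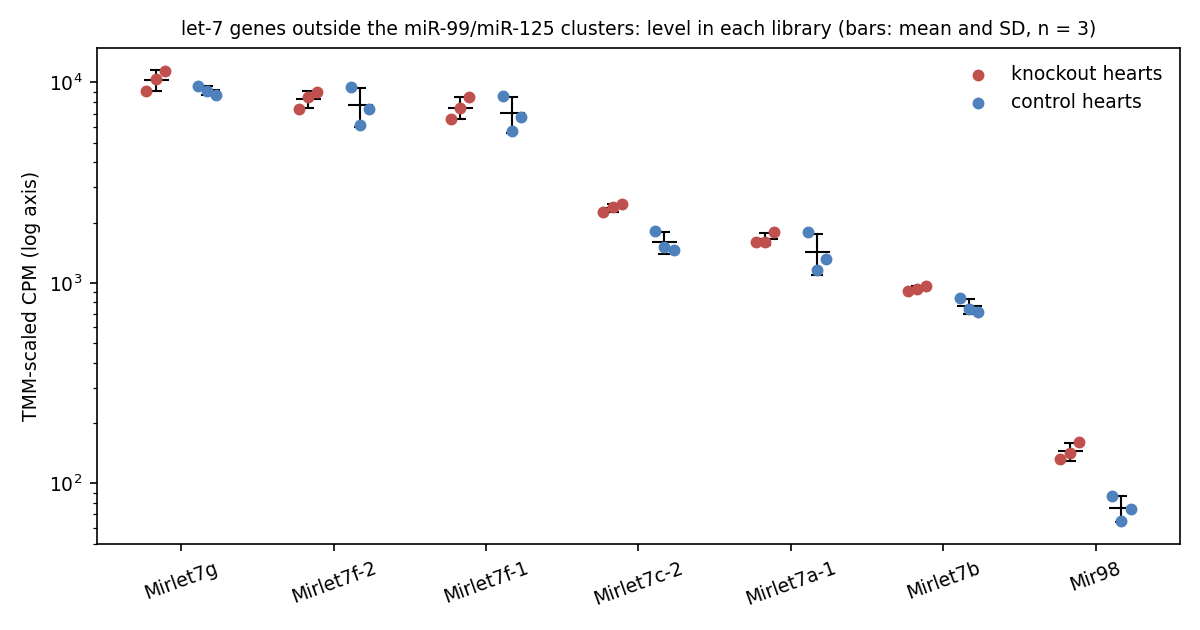
TMM-scaled CPM (log axis) of the 7 let-7 genes with counts, with 1 point per mouse heart, knockout left of control, and bars for the mean and SD of 3 hearts. Points of both groups are apart for Mirlet7c-2, Mirlet7b and Mir98 and overlap for the other 4 genes.

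Mirlet7f-2 and Mir98 lie 976 bp apart from end to end in an intron of Huwe1, which encodes a ubiquitin ligase, on chromosome X. Mir98 (chrX:151913214-151913321, plus strand) had 132, 142 and 161 CPM in knockout hearts and 86.8, 64.8 and 74.9 CPM in control hearts. Every knockout heart lay above every control heart. Its log2 fold change was 0.94 (SE 0.19, adjusted p = 0.00141), but 0.085 (adjusted p = 0.710) under snoRNA-based scaling, which takes its factors from snoRNA and scaRNA genes. Mirlet7f-2 (chrX:151912346-151912428, plus strand) had 7381, 8467 and 8953 CPM in knockout hearts and 9512, 6158 and 7387 CPM in control hearts. The highest of these values is in control replicate 1, and the groups overlapped (log2 fold change 0.11, SE 0.17, adjusted p = 0.613).

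Mirlet7c-2 and Mirlet7b lie within 801 bp on chromosome 15, in exons of the lncRNA gene Lncppara on the same strand. Mirlet7c-2 (chr15:85706603-85706697, plus strand) had 2252, 2382 and 2469 CPM in knockout hearts and 1825, 1504 and 1463 CPM in control hearts. The groups did not overlap. Its log2 fold change was 0.57 (SE 0.15, adjusted p = 0.00763), but 0.22 (adjusted p = 0.242) under total-count scaling and -0.28 (adjusted p = 0.137) under snoRNA-based scaling. The call was also lost without control replicate 3 (0.48, adjusted p = 0.0607). Mirlet7b (chr15:85707319-85707403, plus strand) had 914, 931 and 969 CPM in knockout hearts and 843, 738 and 715 CPM in control hearts. Here too the groups did not overlap, but the difference was not called (log2 fold change 0.29, SE 0.15, adjusted p = 0.128). Without control replicate 1 its adjusted p was 0.0357 (log2 fold change 0.44), and without control replicate 2 it was 0.225 (0.23).

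Mirlet7d, Mirlet7f-1 and Mirlet7a-1 lie within 2261 bp on the minus strand of chromosome 13. Mirlet7a-1 (chr13:48538179-48538272) had 1602, 1595 and 1800 CPM in knockout hearts and 1794, 1161 and 1321 CPM in control hearts. Control replicate 1 stood among the knockout hearts, and the log2 fold change was 0.22 (SE 0.18, adjusted p = 0.322). Without control replicate 1 it was 0.50 (adjusted p = 0.0175), and without control replicate 2 it was 0.061 (adjusted p = 0.773). Mirlet7f-1 (chr13:48537829-48537917) had 6567, 7455 and 8445 CPM in knockout hearts and 8603, 5739 and 6764 CPM in control hearts. Again control replicate 1 was the highest of all 6 (log2 fold change 0.09, SE 0.17, adjusted p = 0.667). A miRNA row annotated on the opposite strand of Mirlet7f-1, Gm24111, held only 1 to 8 counts per library.

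Mirlet7g (chr9:106178840-106178927, plus strand) lies in an intron of Wdr82, which encodes a subunit of histone methyltransferase complexes. It was the highest of the 7 let-7 rows with counts in both groups, with let-7f spread over 2 rows. It had 9032, 10364 and 11461 CPM in knockout hearts and 9655, 9087 and 8662 CPM in control hearts. The groups overlapped through knockout replicate 1, the lowest knockout heart (log2 fold change 0.17, SE 0.13, adjusted p = 0.301). Without knockout replicate 1 the log2 fold change was 0.47 (adjusted p = 0.0665), in a fit where the median of all features also moved by 0.21. In the authors' deposited table, Mir98 had a log2 fold change of 0.98 (adjusted p = 2.51e-05) and Mirlet7c-2 one of 0.60 (adjusted p = 0.00766). The other 5 let-7 genes with counts were not called in the authors' deposited table, with adjusted p from 0.138 to 0.684.

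The levels fell in the same order in both groups. Mature 5p products all have the same length, but a row also takes reads of the 3p arm. Rows of let-7a, let-7c and let-7f can hold reads of another copy. How evenly the libraries captured each sequence was not tested, so the order is one of counts per row. In knockout hearts Mirlet7g averaged 10286 ± 1216 CPM (SD, n = 3 in this and the following means), followed by Mirlet7f-2 at 8267 ± 805, Mirlet7f-1 at 7489 ± 940, Mirlet7c-2 at 2368 ± 110, Mirlet7a-1 at 1666 ± 117, Mirlet7b at 938 ± 28.3 and Mir98 at 145 ± 14.7 CPM. In control hearts the means were 9135 ± 498 CPM for Mirlet7g, 7686 ± 1697 for Mirlet7f-2, 7035 ± 1451 for Mirlet7f-1, 1597 ± 199 for Mirlet7c-2, 1426 ± 329 for Mirlet7a-1, 765 ± 68.5 for Mirlet7b and 75.5 ± 11.0 CPM for Mir98. Mirlet7f-2 and Mirlet7f-1 overlapped in both groups, while Mirlet7g with Mirlet7f-2 and Mirlet7c-2 with Mirlet7a-1 overlapped among control hearts and were apart among knockout hearts. By mean CPM among 312 miRNA genes, Mirlet7g ranked 9 in knockout and 8 in control hearts, Mirlet7c-2 ranked 18 in knockout and 25 in control hearts, and Mir98 ranked 85 in knockout and 100 in control hearts. With copies summed, let-7f averaged 15810 ± 1782 CPM in knockout and 14664 ± 3063 CPM in control hearts, above Mirlet7g in both groups. This order holds only if shared reads were divided between the copies. If they were counted at every copy, the sum holds them repeatedly, and the mean of either let-7f row alone was below that of Mirlet7g. Which of these applies was not tested.

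Genes that encode 1 mature sequence cannot be told apart by reads of that sequence, and the counts of such copies followed each other closely. The hairpins of Mirlet7f-1 and Mirlet7f-2, with the shared 5p sequence in capitals, show that a read of the mature strand alone holds no base that separates them. Both are from RefSeq on GRCm38.p6.
Mirlet7f-1: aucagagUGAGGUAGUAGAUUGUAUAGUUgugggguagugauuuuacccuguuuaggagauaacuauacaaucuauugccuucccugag
Mirlet7f-2: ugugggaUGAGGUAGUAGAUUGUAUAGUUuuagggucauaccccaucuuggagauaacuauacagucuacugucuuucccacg
Mirlet7f-2 over Mirlet7f-1 gave count ratios of 1.124, 1.136 and 1.060 in knockout hearts and 1.106, 1.073 and 1.092 in control hearts. Mirlet7a-1 over Mirlet7a-2, which lies in a miR-99/miR-125 cluster on another chromosome, gave 1.05, 1.05 and 1.05 in knockout hearts and 1.05, 1.06 and 1.05 in control hearts. Mirlet7c-2 over Mirlet7c-1, on chromosome 16, gave 1.05, 1.06 and 1.05 in knockout hearts and 1.07, 1.08 and 1.07 in control hearts. Copies on different chromosomes had counts within 1.136 times of each other in each library. The values of Mirlet7a-1, Mirlet7c-2, Mirlet7f-1 and Mirlet7f-2 are uncertain as values of a locus, since how the authors placed shared reads is not stated. If shared reads were counted at every copy, sums over copies and totals that include Mirlet7f-1 and Mirlet7f-2 hold them repeatedly. Whether they were was not tested.

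**Figure D2:**
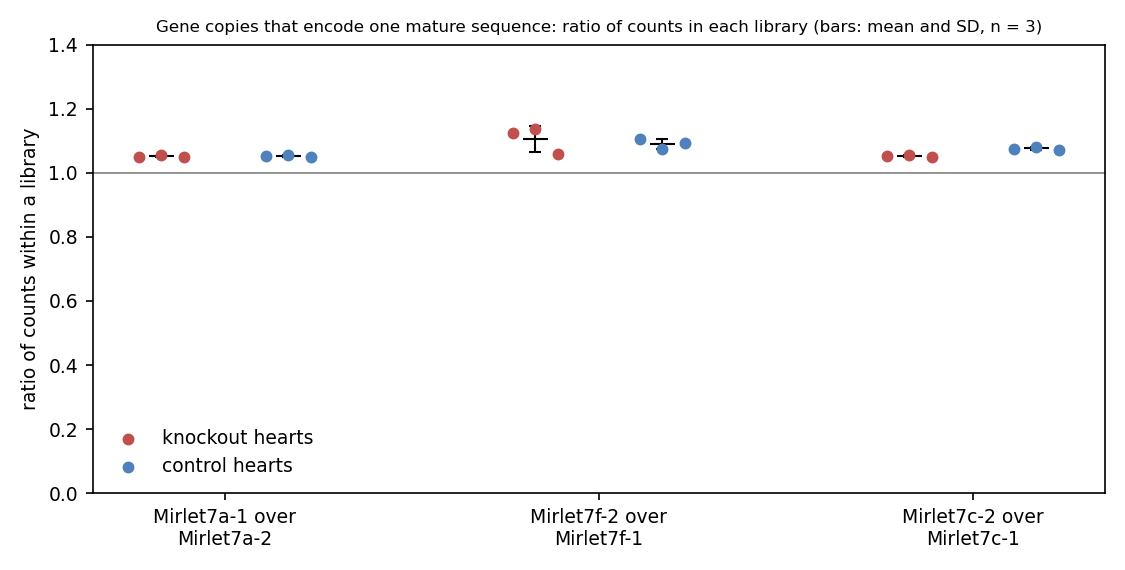
Ratio of counts within each library between gene copies that encode the same mature 5p sequence, with 1 point per heart, knockout left of control, bars for the mean and SD of 3 hearts, and a line at 1. All ratios lie between 1.05 and 1.136.

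With copies summed, let-7c was called higher in knockout hearts and let-7a and let-7f were not. In this fit 23.5% of features were called higher. The CPM of each sum holds shared reads repeatedly if the authors counted them at every copy. The let-7c sum, Mirlet7c-1 included, was 4391, 4656 and 4848 CPM in knockout hearts and 3492, 2891 and 2828 CPM in control hearts, with no overlap. Its log2 fold change was 0.59 (SE 0.14, adjusted p = 0.00420), but 0.24 (adjusted p = 0.187) under total-count and -0.27 (adjusted p = 0.145) under snoRNA-based scaling. The let-7a sum was 3128, 3118 and 3538 CPM in knockout hearts and 3466, 2260 and 2579 CPM in control hearts (log2 fold change 0.24, SE 0.17, adjusted p = 0.278). The let-7f sum was 13950, 15980 and 17502 CPM in knockout hearts and 17950, 11889 and 14153 CPM in control hearts (log2 fold change 0.11, SE 0.16, adjusted p = 0.588). Control replicate 1 had the highest let-7f sum of all 6 hearts and overlapped the knockout hearts for let-7a. Without it, let-7a had a log2 fold change of 0.54 (adjusted p = 0.00875) and let-7f one of 0.39 (adjusted p = 0.0370). Without control replicate 2 instead, let-7a was at 0.092 (adjusted p = 0.666) and let-7f at -0.040 (adjusted p = 0.830).

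The library scaling moved all let-7 genes by about the same amount. Relative to TMM over all features, the median log2 fold change of all features moved by -0.025 under DESeq2 size factors, -0.34 under total-count scaling, -0.18 under miRNA-based scaling, -0.84 under snoRNA-based scaling and 0.55 under scaling on snRNA and rRNA. Over the 6 scalings the log2 fold change of Mir98 lay between 0.085 and 1.497, above 0 in each, and that of Mirlet7g between -0.68 and 0.74. Once the median shift was taken off, Mir98 lay between 0.93 and 0.95, Mirlet7c-2 between 0.55 and 0.58, and Mirlet7g between 0.16 and 0.18. A change of scaling adds nearly the same amount to every feature, so these narrow ranges follow from the method and test nothing. Under snoRNA-based scaling 0 let-7 genes were called higher and 5 lower, and Mir98 was not called (adjusted p = 0.710). Of all 1144 features, 101 were called higher and 659 lower under this scaling. Scaling on snRNA and rRNA gave 3 let-7 genes called higher and 0 lower, with 409 of 1144 features called higher and 224 lower. For the same reason the 7 genes kept their order by fold change under all 6 scalings. The side of 0 depended on the scaling for each of the 7 genes except Mir98.

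**Figure D3:**
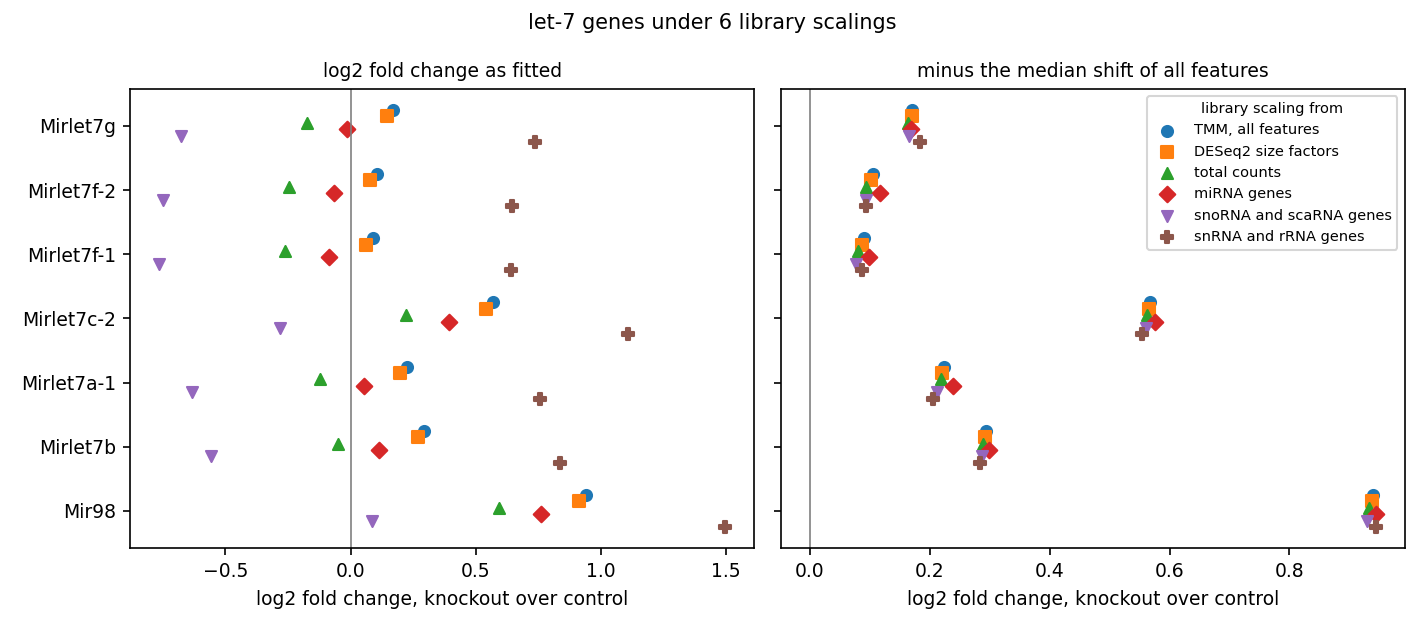
Log2 fold change of knockout over control for the 7 let-7 genes under 6 library scalings, as fitted (left) and after taking off the median shift of all features (right). As fitted Mir98 runs from 0.085 to 1.497, and after the shift is taken off from 0.93 to 0.95. The narrow ranges on the right follow from the method, since scaling moves every feature nearly alike.

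As a share of miRNA counts, which needs no scaling factor, the 9 genes held 9.07%, 8.21% and 9.14% in knockout hearts and 8.48%, 6.36% and 7.67% in control hearts. The groups overlapped through control replicate 1 (8.81% ± 0.520 against 7.51% ± 1.07 in control, SD, exact permutation p = 0.2, n = 3 per group). As a share of all counts the difference had the other sign, -0.36 percentage points (exact p = 0.3). A share of miRNA counts depends on how reads shared by copies were counted, and also on the other miRNA genes in the total. With the most abundant miRNA gene left out of that total, the difference for the 9 genes was 0.97 percentage points (exact p = 0.2). Mir98 held 0.0410% ± 0.00330 of miRNA counts in knockout and 0.0205% ± 0.00316 in control hearts, and Mirlet7c-2 held 0.672% ± 0.0554 in knockout and 0.432% ± 0.0443 in control hearts. Mirlet7b held 0.267% ± 0.0276 in knockout and 0.207% ± 0.0147 in control hearts, and Mirlet7g held 2.90% ± 0.174 in knockout and 2.47% ± 0.0937 in control hearts. For these 4 genes no knockout heart overlapped a control heart, at exact permutation p = 0.1, the smallest p that 3 against 3 allow (0.2 when adjusted over the 8 shares compared). Mirlet7b and Mirlet7g differed the other way as shares of all counts (-0.0029 and -0.12 percentage points). Groups overlapped for Mirlet7a-1, Mirlet7f-1 and Mirlet7f-2, with exact p of 0.2, 0.7 and 0.6. Without control replicate 2, the lowest control heart for the 9 genes, the share of the 9 genes differed by 0.728 percentage points in place of 1.30, that of Mirlet7f-1 by 0.0016 in place of 0.208 and that of Mirlet7f-2 by 0.013 in place of 0.253. How many other features separate as shares of miRNA counts was not computed. In CPM, 3 of the 7 let-7 genes did not overlap between the groups, where 63% of all tested features and 130 of the 312 miRNA genes tested did not.

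Ratios of 2 genes within 1 library depend on no scaling, and all 4 ratios compared separated the groups. How many ratios of other genes separate the groups was not computed. In CPM, 63% of all tested features did not overlap between the groups, so separation alone is not particular to let-7 genes. Mir98 over Mirlet7f-2, its neighbour on chromosome X, was 0.0179, 0.0168 and 0.0180 in knockout hearts and 0.00912, 0.0105 and 0.0101 in control hearts, a difference of 0.82 on the log2 scale. Since reads of let-7f cannot be placed, this ratio also takes in Mirlet7f-1. Mirlet7c-2 over Mirlet7b was 2.46, 2.56 and 2.55 in knockout hearts and 2.16, 2.04 and 2.05 in control hearts, 0.28 higher in knockout hearts on the log2 scale. Mirlet7f-1 over Mirlet7a-1 was 4.10, 4.67 and 4.69 in knockout hearts and 4.79, 4.94 and 5.12 in control hearts, a log2 difference of -0.14. Reads of let-7c and let-7a cannot be placed either. The ratio over Mirlet7b thus also takes in Mirlet7c-1, and the ratio over Mirlet7a-1 takes in Mirlet7f-2 and Mirlet7a-2. Each of these differences had an exact permutation p of 0.1, and p adjusted over the 4 ratios is also 0.1. The planned ratio of Mirlet7d over Mirlet7a-1 has no value, as Mirlet7d is at 0.

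**Figure D4:**
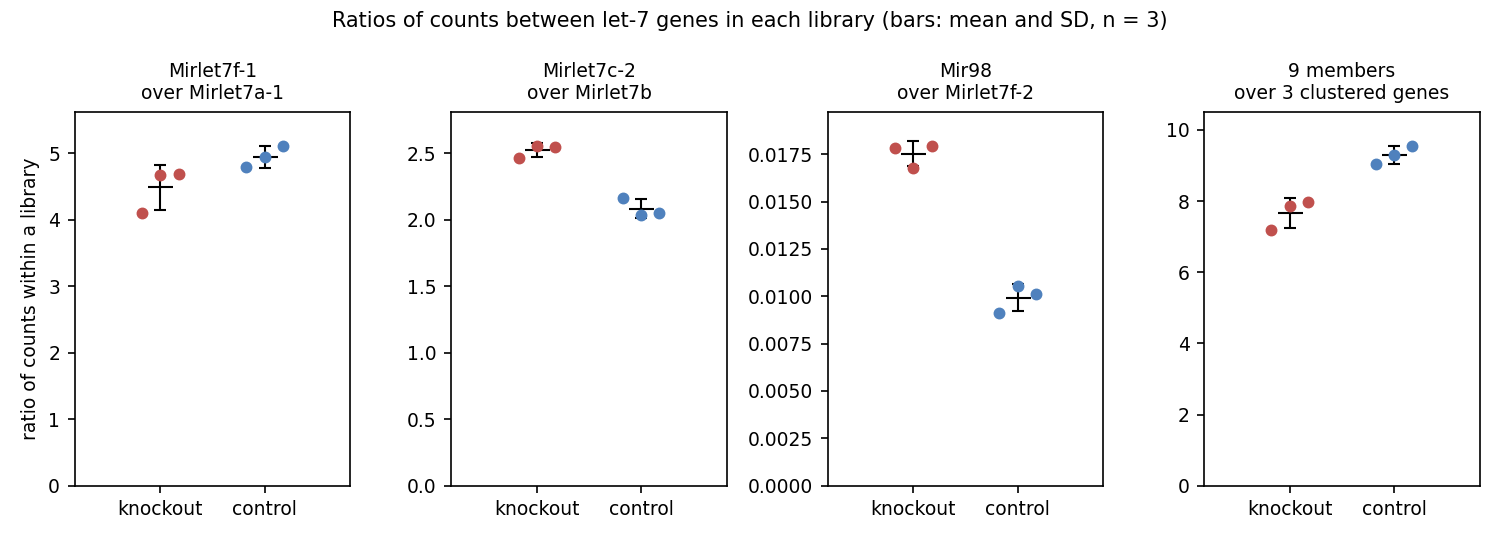
Ratio of counts within each library for 3 pairs of let-7 genes that neighbour each other and for the 9 genes over the 3 let-7 genes of the miR-99/miR-125 clusters, with 1 point per heart, knockout left of control, and bars for the mean and SD of 3 hearts. No knockout point overlaps a control point in any panel, and the log2 difference is largest for Mir98 over Mirlet7f-2, at 0.82. How many ratios of other genes separate the groups was not computed. Rows of let-7a, let-7c and let-7f can hold reads of copies on other chromosomes.

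In the make-up of the 9-gene total, Mirlet7c-2 and Mir98 held larger parts in every knockout heart than in any control heart. Mirlet7c-2 held 7.63% ± 0.435 of the total in knockout and 5.78% ± 0.323 in control hearts, and Mir98 held 0.465% ± 0.0106 in knockout and 0.273% ± 0.0100 in control hearts (exact permutation p = 0.1 for each, 0.35 when adjusted over the 7 genes, n = 3 per group). Mirlet7g held 33.0% ± 0.535 in knockout and 33.3% ± 3.67 in control hearts. The shares of Mirlet7g, Mirlet7f-1, Mirlet7f-2, Mirlet7a-1 and Mirlet7b overlapped between the groups, with exact p from 0.3 to 0.9. For Mirlet7g the spread was wider among control hearts, as it held 32.4%, 33.1% and 33.5% in knockout hearts, against 29.9%, 37.2% and 32.8% in control hearts.

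Set against the 3 let-7 genes of the miR-99/miR-125 clusters, the 9 genes held fewer counts in knockout hearts for each count of those 3. The ratio was 7.18, 7.85 and 7.98 in knockout hearts and 9.05, 9.30 and 9.56 in control hearts, a log2 difference of -0.28 with no overlap (exact permutation p = 0.1, n = 3 per group). How often ratios of other gene sets separate the groups was not computed. Of the 3 clustered genes, Mirlet7c-1 had a log2 fold change of 0.60 (adjusted p = 0.00577), Mirlet7e one of 0.58 (adjusted p = 0.0159) and Mirlet7a-2 one of 0.23 (adjusted p = 0.318). Under total-count scaling neither Mirlet7c-1 (0.25, adjusted p = 0.189) nor Mirlet7e (0.23, adjusted p = 0.317) was called, and under snoRNA-based scaling they were at -0.25 and -0.27. Mirlet7e also lost its call under miRNA-based scaling (0.40, adjusted p = 0.0723) and without control replicate 3 (0.49, adjusted p = 0.0932). Because let-7a and let-7c have a copy on either side of this division, the difference holds reads that could belong to either, and reads of let-7d and let-7i are in neither sum. Among the cluster partners, Mir99a, Mir99b, Mir100, Mir125a and Mir125b-2 were tested and 0 were called by edgeR, with adjusted p from 0.0675 to 0.488. Mir99a (log2 fold change 0.40) and Mir125a (-0.48) had an unadjusted p under 0.05. Mir125b-1 and Mir202 were at 0 in every library.

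The 9-gene sum was 27879, 31335 and 34259 CPM in knockout hearts and 32320, 24452 and 26387 CPM in control hearts. Of 87 other miRNA genes with a mean of at least 100 CPM, the pattern of Mir99a over the 6 libraries was most like that of the sum (Pearson r = 0.92 on log2 CPM), followed by Mir423 (0.90) and Mir24-2 (0.85). These libraries share the depth and scaling of both measures. The 3 genes had control replicate 1 as the highest control heart, as did the let-7 sum, and none of the 3 was called (adjusted p from 0.0675 to 0.238).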

How the data were processed

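Per the labels, small RNA from whole hearts was sequenced in paired ends, with inserts of 15 to 100 nt selected. The authors deposited raw counts per feature and 1 table of their own comparison (mean normalized signal, log2 fold change, Wald score, p-value and adjusted p-value). The submitters' processing notes name mm10 as the build and list DESeq2 1.16.1, featureCounts 1.5.1, Bowtie2 2.2.9 and cutadapt 1.14. Which annotation, strand option and rule for multiply aligned reads the authors chose remains not given in the sources used here. Each mouse had 4 technical replicates by the series' design text, deposited as 1 count column, with the merging not described.

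Counts were the input of every test. Features were kept by filterByExpr (minimum count 10, minimum total 15), scaled by TMM and tested with edgeR 4.0.16 in R 4.3.3 (glmQLFit and glmQLFTest, no covariate). Adjusted p is Benjamini-Hochberg over all 1144 features kept, and a value under 0.05 is called. SE is the absolute log2 fold change divided by the square root of F. The fit was tested on simulated data. In a second fit, gene copies with 1 mature sequence were summed (1141 features). Shares and ratios within libraries were tested by exact permutation (two-sided). The alternatives were 5 other scalings, DESeq2 1.42.0, no filter, a replicate block and each library left out. Sequences came from RefSeq (GRCm38.p6) and positions from GENCODE M21 (GRCm38). Other software was matplotlib 3.10.9, SciPy 1.17.1, Python 3.11.15 and pandas 2.3.3. There were 0 columns of other samples. The genes and lists were chosen with earlier results of these data known. The rule for named genes takes all 9 genes whatever their values, the clustered let-7 genes with their partners, and the 3 other miRNA genes (mean of at least 100 CPM) most correlated with the 9-gene sum.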

Additional observations from a re-analysis of the deposited data

How the results depend on the processing

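Replicate numbers did not pair the libraries: deviations from the group means correlated at -0.13, -0.02 and -0.19 for numbers 1 to 3, and no library correlated best with its own number. With the replicate block 242 features were called higher and 294 lower, and 2 let-7 genes higher. Mirlet7e, outside the 9 genes, was not called under it (0.58, adjusted p = 0.0716).

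Over all features, higher calls were 170 under total-count scaling, 101 under snoRNA-based scaling, 409 under scaling on snRNA and rRNA, and 433 with no filter, against 265. Lower calls were 659 under snoRNA-based scaling, 565 by DESeq2, 708 with no filter and 261 to 559 with 1 library left out, against 309. With 1 library left out, the most lower calls came without control replicate 1. Features tested numbered 1144 in the main fit and under each scaling, 3268 by DESeq2, 9254 with no filter and 1168 to 1410 with 1 library left out. These call counts are therefore out of unlike totals. The let-7 genes called higher numbered 1 under total-count scaling, 0 under snoRNA-based scaling and 3 under scaling on snRNA and rRNA or with no filter. With 1 library left out they numbered 1 (without control replicate 3) to 4 (without control replicate 1). Of all features, 225 of 1168 were called higher without control replicate 3 and 349 of 1410 without control replicate 1. Under snoRNA-based scaling 5 were called lower.

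Under total-count scaling the log2 fold changes were -0.12 for Mirlet7a-1, Mirlet7a-2 and the let-7a sum, -0.26 for Mirlet7f-1, -0.25 for Mirlet7f-2 and the let-7f sum, -0.050 for Mirlet7b, -0.18 for Mirlet7g and 0.24 for the let-7c sum, no longer called. Under miRNA-based scaling they were -0.086 for Mirlet7f-1, -0.068 for Mirlet7f-2, -0.051 for the let-7f sum and -0.015 for Mirlet7g. Under snoRNA-based scaling they were -0.63 for Mirlet7a-1, Mirlet7a-2 and the let-7a sum, -0.77 for Mirlet7f-1, -0.75 for Mirlet7f-2, -0.76 for the let-7f sum, -0.56 for Mirlet7b, -0.28 for Mirlet7c-2, -0.25 for Mirlet7c-1, -0.27 for Mirlet7e and the let-7c sum and -0.68 for Mirlet7g. With 1 library left out the let-7a sum ranged from 0.092 to 0.54, the let-7f sum from -0.040 to 0.41, Mirlet7f-1 from -0.073 to 0.38 and Mirlet7f-2 from -0.068 to 0.38, each lowest without control replicate 2. Mirlet7g ranged from 0.10 to 0.47, lowest without control replicate 3. Leaving out a knockout library moved the median of all features by 0.21 to 0.24, and dropping the filter moved it by 0.36. The cause was not tested.

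As shares of all counts the differences were -0.36 percentage points for the 9 genes, -0.013 for Mirlet7a-1, -0.13 for Mirlet7f-1, -0.14 for Mirlet7f-2, -0.0029 for Mirlet7b and -0.12 for Mirlet7g. The Mirlet7g part of the 9-gene total differed by -2.02 to 1.63 percentage points with 1 library left out. The Mirlet7f-2 part ranged from -2.17 (without control replicate 2) to -0.048 (without control replicate 1), and the Mirlet7f-1 part from -2.13 to -0.55. The other ratios, shares of miRNA counts and parts of the total kept their sign with each library left out, but the share differences of the 9 genes, Mirlet7f-1 and Mirlet7f-2 shrank to 0.728, 0.0016 and 0.013 percentage points without control replicate 2. The planned ratio of Mirlet7d over Mirlet7a-1 had no value. For Mirlet7d and Mirlet7i, at 0 counts, depth sets the limit that can be given. That limit covers counting error alone, not the spread between mice. The labels name no molecular identifiers.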
